A study of Mus musculus with 16 samples.

Results

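Mitochondrial complex I (NADH:ubiquinone oxidoreductase) is described here through the transcripts of its nuclear subunits and of the assembly factors that build it. Genes were taken by symbol, as every row of the count table whose Ensembl identifier maps to a name beginning Ndufa, Ndufb, Ndufc, Ndufs or Ndufv, and 1 pseudogene with the ending -ps was dropped. This gave 49 of 46078 genes: 36 subunits, 8 assembly factors (Ndufaf1 to Ndufaf8), Ndufa4 and its relative Ndufa4l2, and 3 gene copies (Ndufa11b, Ndufb4c and Ndufs6b). The subunit Ndufb1, of the distal membrane arm, was matched to no row and is not among the 36. In each comparison 47 of the 49 passed the filter on low counts, Ndufa11b and Ndufs6b being at or near 0 throughout.

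Poly(A) RNA was sequenced from brown adipose tissue (BAT), the heat-producing fat, and from inguinal white adipose tissue (WAT), a subcutaneous fat store. The donors were female wild-type C57BL/6 mice aged 16 weeks, all bred and weaned at 30 °C and all without food for the last 2 to 3 h. One set of mice remained at 30 °C (groups BAT_30C and WAT_30C). The other set left that temperature when 10 to 12 weeks old, spent 2 weeks at 18 °C and finished with 3 weeks at 5 °C (groups BAT_5C and WAT_5C). Each of the 4 groups had 4 libraries, and the labels do not say whether these came from separate mice, and a p-value here reflects variation among libraries that may be technical.

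Complex I oxidises NADH, passes the electrons to ubiquinone and pumps protons across the inner mitochondrial membrane. Its peripheral arm holds an NADH-oxidising module (N) and a quinone-reducing module (Q), and its membrane arm holds the proton-pumping module, whose core is encoded by the mitochondrial genome (the mt-Nd genes). Core subunits carry out catalysis and accessory subunits surround them, while assembly factors join the growing intermediates and leave before the enzyme is complete. In brown fat the respiratory chain builds the proton gradient that the uncoupling protein Ucp1 dissipates as heat.

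Each library held 54264023 to 71289020 counts. For the brown libraries the tissue label reads "Inguinal BAT", and their brown adipocyte markers summed to 3085 CPM (counts scaled to a common library size) or more, against at most 52.1 in WAT_30C. For 4 of the 8 BAT libraries the source label contradicts the title on temperature, and the title was followed. Ucp1, which cold induces, was at least 12390 CPM in every library titled as cold and at most 2019 CPM in every other BAT library. WAT_5C replicate 1 stood apart from the other 3 cold white libraries: its 13 mammary epithelial markers summed to 16.4 CPM against 1421 to 1499, its 9 T and NK cell markers to 113 against 401 to 496, its 7 adipocyte markers to 20080 against 5132 to 7748, and its 10 skeletal muscle markers to 6474 against 9.26 to 225. In WAT_30C these sums were 957 to 1621, 504 to 732, 3247 to 5645 and 113 to 9711, and none of these markers was at 0 in replicate 1. Results on cold WAT are therefore given with and without it. In whole tissue, fewer cells of a type and less RNA per cell cannot be told apart.

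Subunit transcripts were far more abundant than assembly factor transcripts in every group. Per kilobase of the principal transcript, the assembly factors of BAT_30C ran from 11.7 CPM per kb for Ndufaf6 to 30.4 for Ndufaf1, and the subunits from 98.5 for Ndufab1, the mitochondrial acyl carrier protein, to 900.4 for Ndufb9. Ndufb2, for which the annotation gives an unusually long principal transcript, was the exception at 4.80. Without division by length its mean in BAT_30C was also the lowest of the subunits, at 20.98 CPM. The next lowest subunit was Ndufa11 at 120.1 CPM. In WAT_30C the assembly factors ran from 2.96 (Ndufaf6) to 9.69 CPM per kb (Ndufaf8), and the subunits other than Ndufb2 from 15.5 (Ndufab1) to 119 (Ndufb9). The rank of Ndufaf4 by mean level per kb changed with cold in BAT. At 13.5 CPM per kb it lay below all the assembly factors but Ndufaf6 at 30 °C, and at 36.8 it lay below only Ndufaf1 (48.4) and Ndufaf7 (39.0) at 5 °C. These ranks rest on a principal transcript of 3632 bases for Ndufaf4, against at most 1749 for the other assembly factors. In CPM without division by length, Ndufaf4 had the highest mean of the assembly factors in BAT_30C (48.95) and in BAT_5C (133.8).

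Brown and white fat differed in both classes of gene, and by more for the subunits. At 30 °C all 36 subunits were higher in BAT than in WAT, with a median log2 fold change of 2.68 and a range from 1.41 (Ndufb2) to 3.48 (Ndufv1, the subunit that binds NADH and flavin). All 8 assembly factors were also higher, with a median of 1.64 and a range from 0.995 (Ndufaf8) to 1.98 (Ndufaf6). Over the 19481 genes tested, 34.5% were called higher in BAT, 35.3% lower, and the median was -0.03. Counts scaled to library totals alone, without scaling factors, moved that split to 12.9% higher and 66.1% lower and the median of all genes to -0.88. The subunits still stood above the assembly factors, with 36 of 36 called higher and a median of 1.83. The assembly factors had 7 of 8 called higher and a median of 0.80.

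The per-library values show the gap between the classes directly. The geometric mean of the 36 subunits was 254.6 ± 9.4 CPM (SD, n = 4) in BAT_30C and 42.4 ± 4.76 CPM in WAT_30C. That of the 8 assembly factors was 26.7 ± 1.01 CPM in BAT_30C and 8.87 ± 0.85 CPM in WAT_30C. The ratio of the subunit mean to the assembly factor mean, in which library scaling cancels, was 8.88, 9.39, 10.6 and 9.40 in the BAT_30C libraries and 4.62, 4.79, 4.85 and 4.84 in the WAT_30C libraries. Thus the groups did not overlap, and subunit transcripts outnumbered assembly factor transcripts by more in brown fat. These ratios are a description, with no test.

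**Figure D1:**
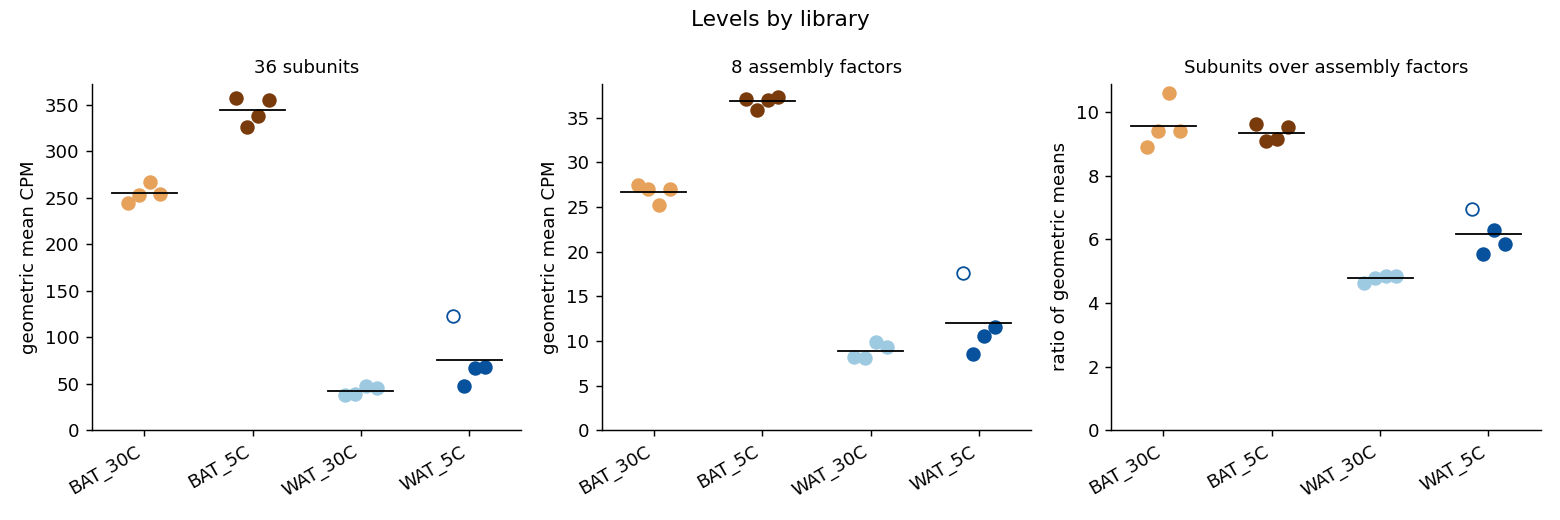
Geometric mean CPM of the 36 subunits (left) and of the 8 assembly factors (centre), and the ratio of the 2 means (right), by library in each group; points are libraries, bars are group means and the open circle is WAT_5C replicate 1. The ratio lies between 8.88 and 10.6 in BAT_30C and between 4.62 and 4.85 in WAT_30C.

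The subunit with the largest and the assembly factor with the smallest tissue difference are given by library. Ndufv1 was 797, 883, 908 and 888 CPM in BAT_30C and 68.0, 72.7, 86.2 and 85.6 CPM in WAT_30C, a log2 fold change of 3.48 ± 0.27 (SE; edgeR quasi-likelihood test, adjusted p = 5.8e-08). Ndufaf8, which acts with Ndufaf5, was 16.2, 16.3, 14.6 and 13.3 CPM in BAT_30C and 7.20, 7.24, 7.89 and 7.95 CPM in WAT_30C, a log2 fold change of 0.995 ± 0.12 (adjusted p = 2.53e-06). The classes overlapped gene by gene, since the subunits Ndufb2 (1.41), Ndufb7 (1.81) and Ndufa2 (1.83) lay below the assembly factors Ndufaf3 (1.86) and Ndufaf6 (1.98). In both Ndufv1 and Ndufaf8 every BAT library lay above every WAT library. That held for all 36 subunits and all 8 assembly factors, against 33.0% of all genes tested.

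Ndufaf2 and Ndufa12 are paralogs, an assembly factor and the subunit that takes its place in the finished enzyme. Ndufa12 was 11.3 ± 0.96 times as high as Ndufaf2 in CPM in BAT_30C and 4.64 ± 0.26 times in WAT_30C (SD, n = 4 each). The tissue difference was 2.69 for Ndufa12 and 1.41 for Ndufaf2 on the log2 scale.

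The core subunits (7 genes) had a median tissue difference of 2.90, and the accessory subunits (29 genes) of 2.59. The 41 nuclear subunits of complexes II to V had a median of 2.69, with 38 called higher, and the 7 mt-Nd transcripts a median of 3.32, with 7 called higher. Other genes of complex I assembly outside the Nduf names (15 genes, such as Ecsit, Acad9 and Tmem126b) were closer to the Ndufaf genes, with a median of 1.60 and 15 called higher. The differences between these lists were not tested.

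At 5 °C the tissues still differed, with all 36 subunits and all 8 assembly factors higher in BAT (31.8% of all genes; 40.5% were lower, and the all-gene median was -0.19). Library totals moved that split to 10.9% and 71.3% and left 36 and 8 called higher. No library of one tissue overlapped the other for any of the 44 genes (28.8% of all genes). The subunit median was 2.21, and 2.52 without WAT_5C replicate 1. The assembly factor median was 1.53, and 1.78 without that library. Without it the 36 and 8 calls stood against 34.0% of all genes. Here Ndufaf4 had the largest tissue difference among the assembly factors (2.36) and Ndufaf3 the smallest (1.21). The subunit to assembly factor ratio was 9.62, 9.09, 9.16 and 9.51 in BAT_5C, which lies within the range of the BAT_30C libraries. In WAT_5C it was 6.96, 5.54, 6.28 and 5.86, above every WAT_30C library, and replicate 1 had the highest of these values.

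**Figure D2:**
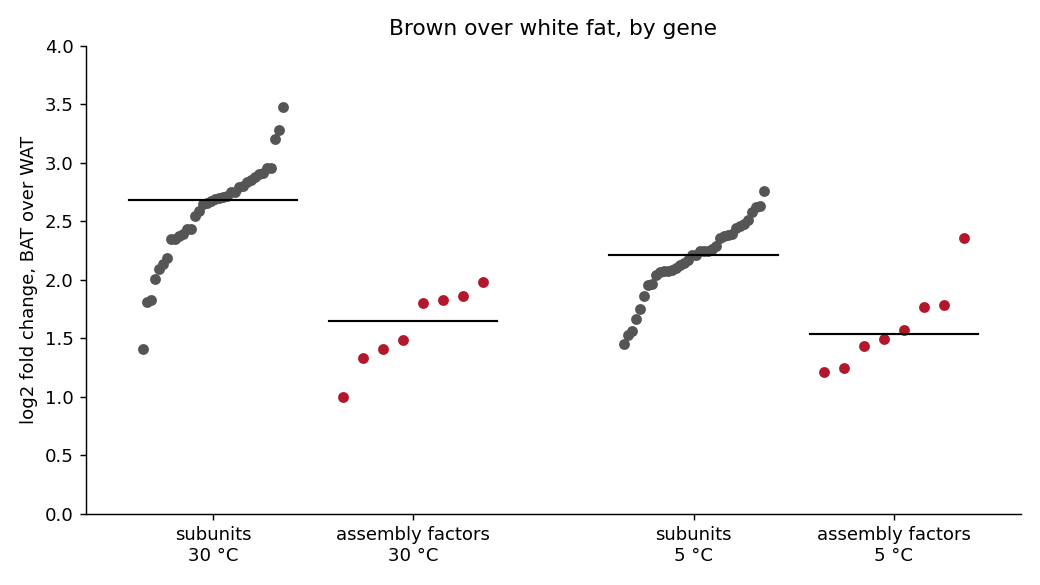
Log2 fold change of BAT over WAT for each of the 36 subunits (grey) and 8 assembly factors (red) at 30 °C and at 5 °C, with genes sorted by value within each column and bars at the medians. The medians are 2.68 and 1.64 at 30 °C and 2.21 and 1.53 at 5 °C.

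Cold raised most subunit transcripts in BAT. Of the 36 subunits 29 rose, 1 fell and 6 did not pass the test, with a median log2 fold change of 0.49, while 29.2% of the 16213 genes tested rose and 30.3% fell. Of the 8 assembly factors 6 rose and 1 fell, with a median of 0.34, and they spread more widely, from -0.27 to 1.45, than the subunits, from -0.15 to 0.85. Library totals shifted the median of all genes from -0.05 to -0.43 and the calls over all genes to 14.3% higher and 54.5% lower. Under them 17 subunits rose and 7 fell with a median of 0.12, and 3 assembly factors rose and 1 fell with a median of -0.04. With the 4 BAT libraries whose labels all match, 26 subunits and 3 assembly factors rose and none of either fell (20.3% of all genes rose and 16.4% fell). In the fit of all 16 libraries 16 subunits and 3 assembly factors rose and none fell (20.9% and 23.7% of all genes). With groups taken from the source label, edgeR called none of the 44 genes, none reached an unadjusted p under 0.05 (0.154% of all genes did so as higher and 0.148% as lower), and 0.00% of all genes passed the adjusted threshold.

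By library, the geometric mean of the 36 subunits was 244, 253, 267 and 254 CPM in BAT_30C and 357, 326, 338 and 355 CPM in BAT_5C. The 8 assembly factors had geometric means between 25.2 and 27.5 CPM at 30 °C, and between 35.9 and 37.4 CPM at 5 °C. Neither overlapped between temperatures.

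Subunits of every module took part. Among the core subunits 6 of 7 rose, with a median of 0.62: Ndufs8, which carries iron-sulfur clusters in the Q module, rose from 210.1, 209, 229 and 211 CPM to 383, 347, 354 and 373 CPM (0.76 ± 0.06, adjusted p = 4.77e-06). Ndufs1, the iron-sulfur subunit of the N module, rose from 586, 620, 582.5 and 633 CPM to 982, 964, 939 and 1046 CPM (0.70 ± 0.06, adjusted p = 9.63e-06). In both genes the groups were far apart. Of the accessory subunits on the N module side 6 of 7 rose, led by Ndufs4, needed for attaching that module, which went from 169, 173.5, 183 and 185 CPM to 331, 310.4, 304 and 329.5 CPM (0.85 ± 0.06, adjusted p = 2.46e-06). Ndufa9, on the Q module side, rose from 371, 394, 391 and 399.9 CPM to 702.5, 679, 656 and 741 CPM (0.84 ± 0.06, adjusted p = 3.00e-06). Both are accessory subunits of the peripheral arm, and they had the largest rises of the 36.

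In the membrane arm 7 of the 9 accessory subunits of the proximal part rose and 1 fell, with a median of 0.62, and 8 of the 10 of the distal part rose, with a median of 0.38. Ndufc2, of the proximal part, was 240.4, 255, 254 and 246 CPM at 30 °C and 227, 217, 224 and 229 CPM at 5 °C. It fell by 0.15 ± 0.05 on the log2 scale (adjusted p = 0.0292). The groups did not overlap, but the difference was small, and it did not pass the threshold when BAT_30C replicate 2, 3 or 4 or BAT_5C replicate 2 or 3 was left out (Ndufc2, adjusted p up to 0.101), nor with RLE size factors (0.0566) or DESeq2 (0.061). The 6 subunits that did not pass were Ndufa5 (0.14), Ndufa13 (-0.03), Ndufb3 (-0.04), Ndufb10 (-0.05), Ndufa7 (-0.11) and Ndufs7 (-0.14). Under library totals these 6 and Ndufc2 were the 7 subunits called lower. Every cold library lay above every BAT_30C library for 28 of the 36 subunits and below for 1, each against 27.6% of all genes.

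**Figure D3:**
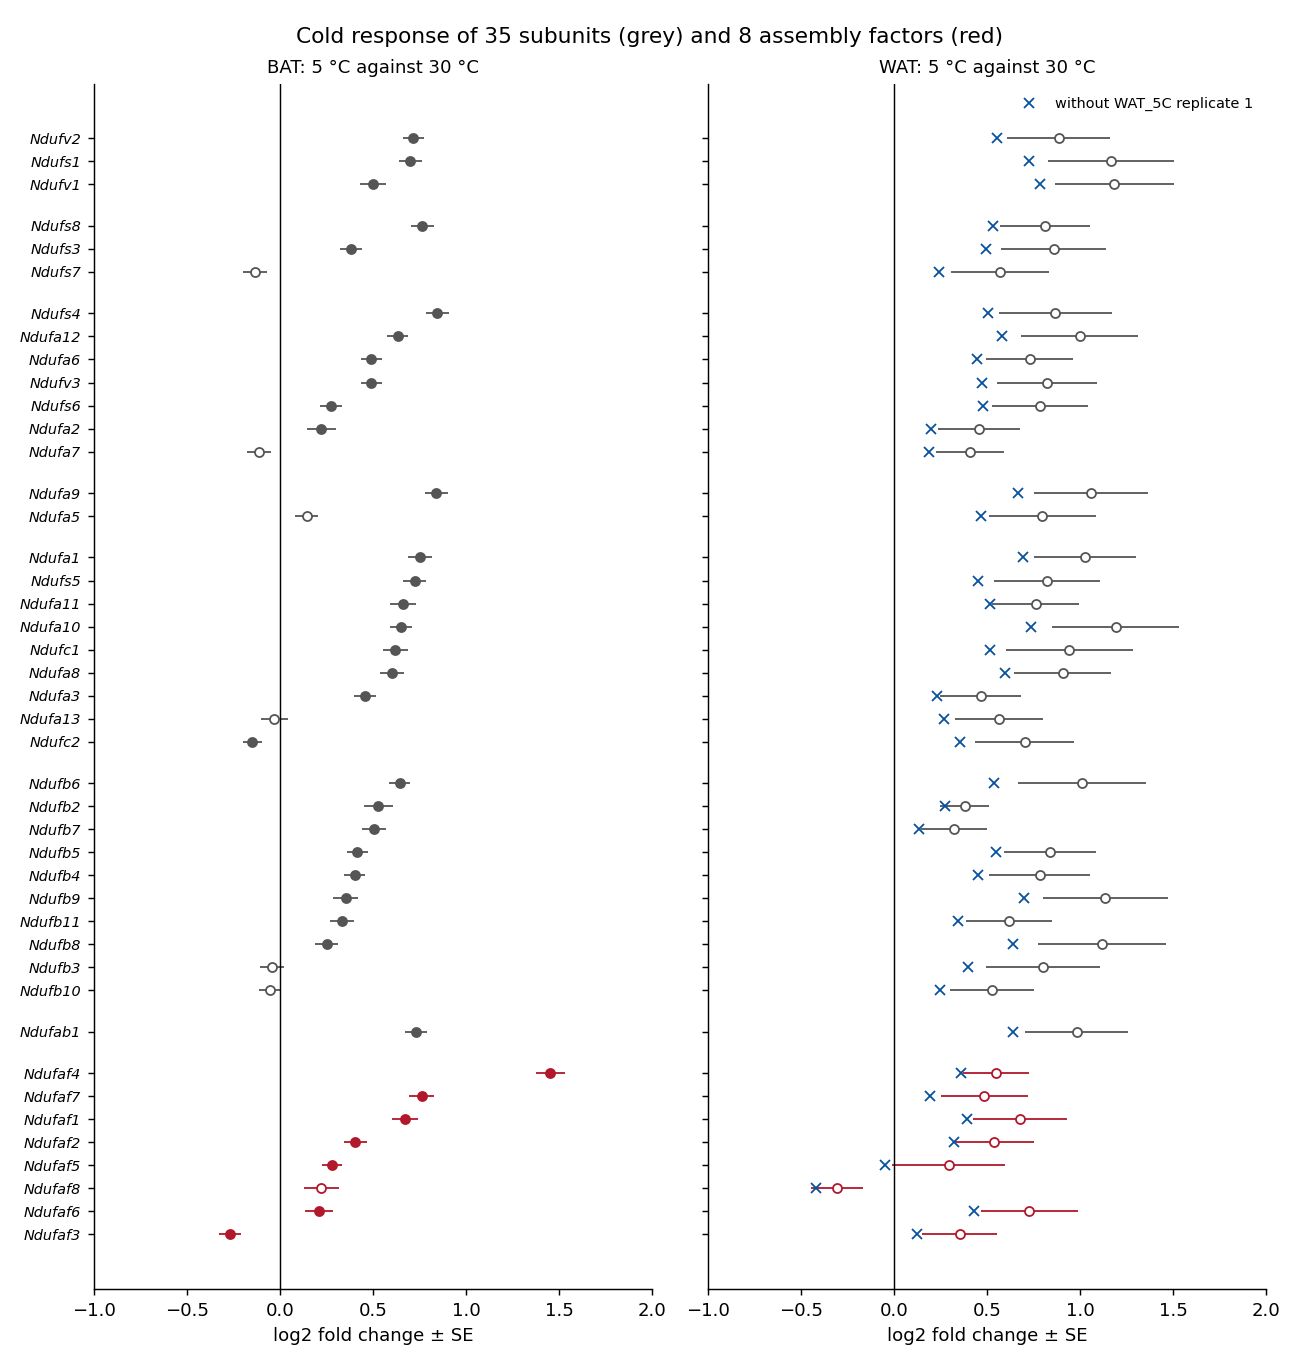
Log2 fold change of 5 °C against 30 °C with its SE for 35 of the 36 subunits (grey) and 8 assembly factors (red) in BAT (left) and WAT (right); filled symbols passed an adjusted p of 0.05, open symbols did not, and crosses are the WAT values without WAT_5C replicate 1. From the top, blocks are core N, core Q, accessory N side, accessory Q side, proximal membrane arm, distal membrane arm, the acyl carrier protein and the assembly factors; Ndufaf4 in BAT, at 1.45, is the value farthest to the right.

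The assembly factors diverged most at Ndufaf3 and Ndufaf4, whose proteins bind each other and act early, on the Q module. Ndufaf4 was 52.3, 50.6, 43.6 and 49.35 CPM in BAT_30C and 140.3, 119.5, 139 and 136 CPM in BAT_5C, a log2 fold change of 1.45 ± 0.08 (adjusted p = 4.76e-07). This was the largest rise among the 47 tested genes of the family. Ndufaf3 was 39.9, 39.5, 36.5 and 39.8 CPM in BAT_30C and 32.45, 32.4, 30.5 and 33.5 CPM in BAT_5C, and fell by 0.27 ± 0.06 on the log2 scale (adjusted p = 0.0031). The groups did not overlap for either gene, and both kept these directions with library totals. The Ndufaf3 call did not pass with the 4 BAT libraries of matching labels alone (-0.31, adjusted p = 0.067) or in the fit of all 16 libraries (-0.27, adjusted p = 0.158). Of the exonic bases of Ndufaf3, 3.23% overlap Impdh2 on the opposite strand, and the strand setting of the counting is not given in the sources used here.

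The ratio of Ndufaf4 to Ndufaf3 within a library does not depend on scaling. It was 1.31, 1.28, 1.197 and 1.24 in BAT_30C and 4.32, 3.69, 4.55 and 4.07 in BAT_5C. In WAT it was 1.71, 1.61, 1.47 and 1.77 at 30 °C and 1.78, 1.90, 1.90 and 1.97 at 5 °C. The cold BAT libraries thus stood apart from the other 12.

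The 120 bases before the start of each of these partner genes are shown because the genes moved in opposite directions, with Ndufa11, a subunit of the proximal membrane arm, as the one subunit with the same motif. They come from RefSeq (GRCm38.p6) and run 5′ to 3′ on the gene's strand. Capitals mark the palindromic consensus of the nuclear respiratory factor NRF1, a regulator of respiratory genes, which reads the same on both strands. Ndufaf4 lies on the plus strand (chr4:24897963-24898082), Ndufaf3 on the minus strand (chr9:108567437-108567556) and Ndufa11 on the plus strand (chr17:56717642-56717761).
Ndufaf4: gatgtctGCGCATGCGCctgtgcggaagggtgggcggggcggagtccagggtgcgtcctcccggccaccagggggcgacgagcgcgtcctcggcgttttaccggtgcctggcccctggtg
Ndufaf3: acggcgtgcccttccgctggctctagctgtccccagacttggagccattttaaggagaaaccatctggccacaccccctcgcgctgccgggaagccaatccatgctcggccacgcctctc
Ndufa11: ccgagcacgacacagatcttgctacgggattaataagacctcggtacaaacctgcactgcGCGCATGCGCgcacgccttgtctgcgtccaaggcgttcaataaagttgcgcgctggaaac

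The motif begins 113 bases before the start in Ndufaf4 and 60 bases before it in Ndufa11, and these letters are not in the Ndufaf3 window. Promoter windows of 300 bases (250 before the start and 50 after) were at hand for 32 subunits and 7 assembly factors. The motif was in 1 of the 32 (3.12%) and in 2 of the 7 (28.6%, Ndufaf4 and Ndufaf5), against 1.07% of all 27025 windows and 1.47% of those of protein-coding genes. A shorter palindrome, TGCGCA, which overlaps it in Ndufaf4, was in 10 of the 32 subunit windows (31.2%) and in 1 of the 7 assembly factor windows (14.3%, Ndufaf4), against 8.79% of all windows and 11% of those of protein-coding genes. The extended consensus of the factor YY1, searched on both strands, was in 4 subunit windows (12.5%: Ndufa9, Ndufs4, Ndufs6 and Ndufs7) and in 1 assembly factor window (14.3%, Ndufaf8), against 0.755% of all windows and 1.06% of those of protein-coding genes. In cold BAT the genes with these letters had log2 fold changes from -0.14 (Ndufs7, not called) and 0.22 (Ndufaf8, not called) through 0.27 (Ndufs6) to 0.84 (Ndufa9) and 0.85 (Ndufs4). Other motifs were searched in the same windows, with shares given for subunits, assembly factors and protein-coding genes in turn. The ETS (GABPA) motif was in 3.12%, 0% and 5.69%, and the ERR motif in 9.38%, 0% and 4.73%. The CCAAT motif was in 31.2%, 57.1% and 42.3%, and the TATA motif in 12.5%, 0% and 14.8%. The mean CPM of the genes with the NRF1 motif was 48.95 (Ndufaf4), 25.59 (Ndufaf5) and 120.1 (Ndufa11) in BAT_30C. In BAT_5C these means were 133.8, 31.06 and 189.7. The windows of Ndufaf1 and Ndufaf7 lack the motif, and their means rose from 44.07 to 70.23 and from 40.33 to 68.27 CPM. Whether the motif has a part in the cold response was not tested. A match describes letters and not binding.

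The other assembly factors fell between these extremes. Ndufaf7, a methyltransferase that acts on the growing complex, was 41.4, 38.6, 37.75 and 43.5 CPM in BAT_30C and 63.15, 68.6, 68.9 and 72.4 CPM in BAT_5C, and rose by 0.76 ± 0.07 (adjusted p = 8.56e-06). Ndufaf1, which joins Ecsit, Acad9 and Tmem126b in a complex that builds the membrane arm, went from 43.6, 47.75, 39.3 and 45.6 CPM to 66.3, 71.1, 69.3 and 74.3 CPM, a rise of 0.67 ± 0.07 (adjusted p = 2.83e-05). Both genes rose about as far as the leading subunits, with no overlap between groups.

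Ndufaf2 rose by 0.41 ± 0.06 (adjusted p = 0.000418), from 14.98 to 16.2 CPM across the BAT_30C libraries to 19.45 to 21.55 in BAT_5C. Ndufaf5, which hydroxylates the core subunit Ndufs7, rose by 0.28 ± 0.05 (adjusted p = 0.00164), from 24.6 to 26.5 CPM to 30.2 to 33.1. Ndufaf6, another early factor, rose by 0.21 ± 0.07 (adjusted p = 0.0342), from 12.3 to 13.35 CPM to 13.9 to 15.5. Under library totals Ndufaf2 was 0.027 (adjusted p = 0.779) and Ndufaf5 and Ndufaf6 turned to -0.10 and -0.17, and none of the 3 passed the threshold. The Ndufaf2 call did not pass in the fit of all 16 libraries (adjusted p = 0.0538) or with the 4 libraries of matching labels (0.0536). Ndufaf6 did not pass without BAT_5C replicate 1, 3 or 4 (adjusted p from 0.0556 to 0.0825), with no filter (0.0793), with the replicate block (0.0764), in the fit of all 16 libraries (0.405) or with the 4 libraries (0.202). Ndufaf8 changed by 0.22 ± 0.09 (adjusted p = 0.0683), with overlapping groups, and passed the test only without BAT_30C replicate 1, BAT_30C replicate 2 or BAT_5C replicate 2 among the libraries left out in turn (Ndufaf8, adjusted p from 0.035 to 0.0452), or with RLE size factors (0.0465) or DESeq2 (0.0363). In all, 6 of the 8 assembly factors were higher in every cold BAT library and Ndufaf3 was lower in every one (27.6% of all genes in each direction).

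**Figure D4:**
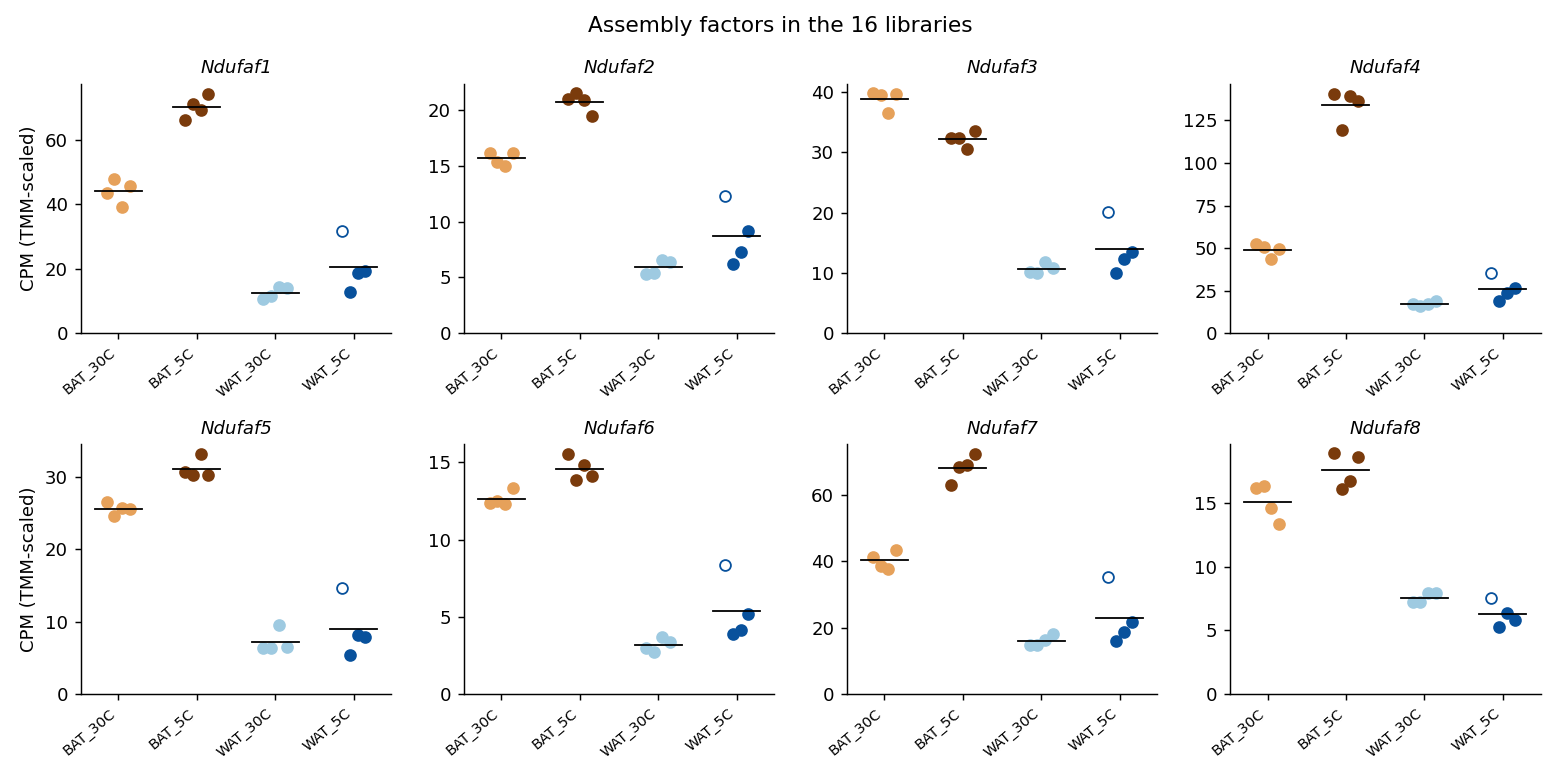
CPM of the 8 assembly factors by library in the 4 groups; points are libraries, bars are group means and the open circle is WAT_5C replicate 1. Ndufaf4 in BAT_5C lies between 119.5 and 140.3 CPM, above every other library, and Ndufaf3 is lower in BAT_5C than in BAT_30C.

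Of the 15 other assembly genes, 13 rose in cold BAT and none fell, with a median of 0.51. Tmem70, which acts on complexes I and V, rose by 1.01 ± 0.07 (adjusted p = 2.58e-06), and Aifm1, which with Chchd4 forms the import route for several subunits, by 0.99 ± 0.06 (adjusted p = 7.74e-07). Acad9 rose by 0.81 ± 0.06 and Chchd4 by 0.77 ± 0.06. Of the 7 mt-Nd transcripts 2 rose and 2 fell, with a median of -0.10, while 29.2% of all genes tested rose and 30.3% fell. The sum of the mt-Nd transcripts over the sum of the nuclear subunits was 9.38 ± 0.67 in BAT_30C and 7.71 ± 0.55 in BAT_5C (SD, n = 4 each).

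Among the 41 subunits of complexes II to V 36 rose and 1 fell, with a median of 0.52. The summed complex I subunits over the summed subunits of complexes II to V were 0.347, 0.344, 0.3502 and 0.342 in BAT_30C and 0.3096, 0.304, 0.308 and 0.302 in BAT_5C. Every cold library lay below every BAT_30C library, so the ratio of these sums was lower in cold BAT. Abundant genes weigh most in such sums. The median log2 fold changes were 0.495 for the complex I subunits and 0.52 for those of complexes II to V. Cox7a1 and Cox8b are in the second sum and also among the brown adipocyte markers used here. Mitochondrially encoded transcripts are in neither sum.

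Other markers moved with temperature in BAT. The 10 brown adipocyte markers summed to 3085 to 5435 CPM in BAT_30C and 18850 to 20490 in BAT_5C, the 7 white fat markers to 792 to 1200 and 67.8 to 159.7, the 7 adipocyte markers to 13620 to 16990 and 17090 to 18710, and the 9 T and NK cell markers to 8.58 to 11.6 and 2.08 to 5.61. The 10 skeletal muscle markers varied widely among libraries, from 2.53 to 1524 CPM in BAT_30C and from 2.05 to 2325 in BAT_5C, with overlapping groups. Mitochondrially encoded genes took 24.2 to 26.8% of counts in BAT_30C and 17.6 to 19.4% in BAT_5C. Their part in the results above was not tested, except that leaving these genes out of the totals and the fit kept 29 and 1 subunit calls and 6 and 1 assembly factor calls, higher and lower.

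In WAT every subunit had a positive cold response, but none passed the test. The median was 0.82, from 0.32 (Ndufb7) to 1.19 (Ndufa10), and 0 of 36 subunits and 0 of 8 assembly factors were called by edgeR, where 0.0632% of the 18975 genes tested were called higher and none lower. At an unadjusted p under 0.05, 31 subunits and 4 assembly factors were higher, against 11.3% of all genes. DESeq2, run without the filter on low counts, called 10 subunits and no assembly factor higher. Of its 31226 genes with any count, 2.53% were called higher and 0.733% lower, so these shares are not over the genes edgeR tested. In the fit of all 16 libraries, which shares one estimate of the spread between tissues, 29 subunits and 4 assembly factors were called higher (7.39% of all genes, with 0.76% lower). Library totals moved the calls over all genes to 0.385% higher and 0.0474% lower and the all-gene median from -0.01 to -0.27, with still 0 subunits and 0 assembly factors called.

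The cold libraries differed among themselves. The geometric mean of the 36 subunits was 37.9, 38.9, 47.7 and 45.1 CPM in WAT_30C and 122, 47.0, 66.5 and 68.0 CPM in WAT_5C replicates 1 to 4. Replicate 2 lay within the range of WAT_30C, replicates 3 and 4 lay above it and replicate 1 was highest. Without replicate 1 the subunit median was 0.50, from 0.13 (Ndufb7) to 0.78 (Ndufv1), and all 36 values stayed positive. Again 0 of 36 and 0 of 8 were called by edgeR (1.84% of genes higher, 0.274% lower), and 29 subunits were higher at an unadjusted p under 0.05 (12.2% of all genes), Ndufa1 having the smallest adjusted p (0.0594), with 3 assembly factors higher and Ndufaf8 lower (11.0% of all genes were lower). With and without replicate 1, the cold libraries lay above every WAT_30C library for 15 of the 36 subunits and for 1 of the 8 assembly factors, Ndufaf6, against 8.23% of all genes with it and 11.9% without it. Replicate 1 was the highest cold library for each of the 36 subunits and 8 assembly factors, so leaving it out could not change these 2 counts. The high values of replicate 1 stood beside the marker sums given for it above and a mitochondrially encoded share of 9.59%, against 4.04 to 5.66% in the other cold WAT libraries. The 10 brown adipocyte markers summed to 24.45 to 52.1 CPM in WAT_30C and to 680.4, 100.5, 847 and 400.5 CPM in WAT_5C replicates 1 to 4. Ucp1 alone was at most 0.324 CPM in WAT_30C and 67.2, 6.08, 399 and 129 CPM in WAT_5C. Their part in the result was not tested.

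Ndufa10, an accessory subunit of the proximal membrane arm, was 59.5, 62.5, 75.95 and 72.6 CPM in WAT_30C and 284, 82.2, 136 and 129 CPM in WAT_5C. Its log2 fold change was 1.19 ± 0.34 (adjusted p = 0.187), and 0.74 ± 0.17 (adjusted p = 0.0678) without replicate 1. Ndufs1 was 67.55, 71.5, 85.8 and 87.1 CPM in WAT_30C and 319, 93.65, 147 and 155 CPM in WAT_5C (1.17 ± 0.34, adjusted p = 0.19). For both genes each cold library lay above each WAT_30C library. Ndufb7, of the distal arm, was 40.8, 41.75, 51.6 and 48.65 CPM in WAT_30C and 79.7, 44.0, 52.9 and 57.0 CPM in WAT_5C, and its groups overlapped.

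The assembly factors had a median of 0.51 in cold WAT, and 0.26 without replicate 1. Ndufaf4 was 17.4, 16.1, 17.4 and 19.1 CPM in WAT_30C and 35.6, 19.0, 23.4 and 26.5 CPM in WAT_5C (0.55 ± 0.18, adjusted p = 0.216, and 0.36 ± 0.11, adjusted p = 0.12, without replicate 1). Ndufaf3 was 10.15, 10.02, 11.9 and 10.8 CPM in WAT_30C and 20.04, 10.02, 12.3 and 13.4 CPM in WAT_5C (0.35 ± 0.20, adjusted p = 0.355). Ndufaf8 was 7.20, 7.24, 7.89 and 7.95 CPM in WAT_30C and 7.57, 5.26, 6.34 and 5.82 CPM in WAT_5C (-0.31 ± 0.14, adjusted p = 0.284, and -0.42 ± 0.10, adjusted p = 0.0773, without replicate 1). Ndufaf6, which had the largest value, was 3.01, 2.75, 3.695 and 3.34 CPM in WAT_30C and 8.39, 3.91, 4.12 and 5.21 CPM in WAT_5C (0.73 ± 0.26, adjusted p = 0.235, and 0.43 ± 0.15, adjusted p = 0.152, without replicate 1). None of these passed, and Ndufaf8 was the one assembly factor with a negative value in both fits. Without replicate 1 its 3 cold libraries lay below all 4 WAT_30C libraries (7.05% of all genes did so), and Ndufaf5 turned from 0.29 to -0.05.

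Of the 15 other assembly genes none passed in cold WAT, with 14 positive values and a median of 0.45. Aifm1 had the smallest adjusted p (0.99 ± 0.25, adjusted p = 0.165). Without replicate 1, Foxred1 rose by 0.46 ± 0.08 (adjusted p = 0.039) and Aifm1 by 0.68 ± 0.13 (adjusted p = 0.0473). The mt-Nd transcripts had a median of 1.16, and 0.61 without replicate 1, with 0 of 7 called in either. Complex I subunits over subunits of complexes II to V, as sums, were 0.365, 0.362, 0.368 and 0.356 in WAT_30C and 0.329, 0.354, 0.3345 and 0.337 in WAT_5C, so that every cold library lay below every WAT_30C library.

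The difference between the cold responses of the tissues was tested directly, as WAT minus BAT. By edgeR 1 of 36 subunits and 3 of 8 assembly factors differed, against 20.8% of the 19481 genes tested. Ndufaf4 had a lower value in WAT (-0.87 ± 0.20, adjusted p = 0.00638), as did Ndufaf8 (-0.50 ± 0.16, adjusted p = 0.0409), which was called in neither tissue. The differences were positive for Ndufaf3 (0.65 ± 0.21, adjusted p = 0.0411) and Ndufc2 (0.88 ± 0.29, adjusted p = 0.04). Both had fallen in BAT (-0.27 and -0.15), and their values in WAT, 0.35 (adjusted p = 0.355) and 0.70 (adjusted p = 0.244), did not pass. All 4 kept their direction when WAT_5C replicate 1 was left out. The Ndufaf4 difference passed the test in each of the 16 fits with 1 library left out (adjusted p at most 0.0170). Ndufaf3 and Ndufaf8 passed in 4 of the 16 and Ndufc2 in 5.

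Without WAT_5C replicate 1 the differences were -1.10 ± 0.14 for Ndufaf4 (adjusted p = 5e-05), -0.57 ± 0.13 for Ndufaf7 (adjusted p = 0.00402), -0.65 ± 0.14 for Ndufaf8 (adjusted p = 0.00274), 0.38 ± 0.12 for Ndufaf3 (adjusted p = 0.0256), 0.49 ± 0.13 for Ndufc2 (adjusted p = 0.0103) and -0.38 ± 0.13 for Ndufb7 (adjusted p = 0.0397). That made 2 of 36 subunits and 4 of 8 assembly factors, against 31.3% of all genes. The subunit median of the difference moved from 0.40 to -0.02, and the assembly factor median from 0.04 to -0.31, around all-gene medians of 0.12 and 0.06. Among the 15 other assembly genes 1 differed with replicate 1 (Dmac2, -0.41, adjusted p = 0.0471) and 5 without it, all with a lower value in WAT than in BAT, led by Acad9 (-0.58 ± 0.09, adjusted p = 0.00019). The share of subunits called lay below that of all genes in both fits. RLE size factors moved the calls over all genes from 12.5% higher and 8.34% lower to 10.6% and 10.8%, and library totals to 13.4% and 5.54%. Under RLE 0 subunits and 2 assembly factors were called, and under library totals 12 subunits and 3 assembly factors.

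Among the relatives and copies, Ndufa4, named as a complex I subunit but found in complex IV, was 709, 774, 843 and 779.9 CPM in BAT_30C and 972, 920.0, 954 and 980.5 CPM in BAT_5C, and rose by 0.30 ± 0.07 (adjusted p = 0.00287), but was -0.08 with library totals. It had the highest level of the family per kb in all 4 groups. Its paralog Ndufa4l2 was 11.8 to 14.5 CPM in BAT_30C and 12.75 to 14.75 in BAT_5C (0.03 ± 0.10, adjusted p = 0.771). In WAT_30C it was 2.79, 5.46, 3.84 and 3.64 CPM, and in WAT_5C 6.00, 2.67, 3.28 and 3.03 CPM, with overlapping groups in both tissues. The copy Ndufb4c, at 2.33 to 3.65 CPM in BAT, shares all its 50-base windows (100%) with Ndufb4 or other copies, so such reads cannot be told apart. Among the subunits, 7 share more than 20% of their windows with another gene, with Ndufs3 at 39.7%, and none of the assembly factors does.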

How the data were processed

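The authors deposited raw counts per Ensembl gene for 16 libraries. Trim Galore and TopHat are named without versions, per the submitters' processing notes, and libraries were made with a poly(A) kit, per the labels' protocols. The sources used here give no genome build, annotation, counting program or strand setting. Symbols and transcripts came from GENCODE M21. The members and lists were chosen with earlier results of these data known. Any member may be named, and per-library values are given for Ndufaf1 to Ndufaf8 and the largest and smallest subunit changes, with up to 4 other assembly genes per tissue by adjusted p.

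Counts were TMM-scaled, genes of low count were dropped by filterByExpr (at least 10 counts, 15 in total), and the rest were tested by the edgeR 4.0.16 quasi-likelihood F-test in R 4.3.3 with Benjamini-Hochberg adjustment over all genes and a threshold of 0.05. BAT and WAT were fitted apart. Tissue differences and the difference between cold responses came from one fit of 16 libraries. SE is in log2 units. Alternatives were RLE size factors, library totals, no filter, mitochondrially encoded genes left out, DESeq2 1.42.0, each library left out, a replicate block, all 16 libraries in one fit, and other readings of the BAT labels. One subunit is counted in the totals and is not reported here by itself. Scripts were tested on simulated counts. Unnamed identifiers held 0.0403 to 0.117% of counts per library.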

Additional observations from a re-analysis of the deposited data

Results flagged for a closer look

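Over the 47 tested genes of the family in the 4 groups (188 sets of 4 libraries), 7 values lay far from the other 3, with a gap over the group's range above Dixon's critical value of 0.829. They were Ndufaf3 in BAT_30C replicate 3 (36.5 CPM), Ndufs8 in BAT_30C replicate 3 (229 CPM), Ndufb3 in BAT_30C replicate 3 (276 CPM), Ndufb10 in BAT_30C replicate 1 (398 CPM), Ndufa11 in WAT_30C replicate 3 (35.3 CPM), Ndufaf5 in BAT_5C replicate 3 (33.1 CPM) and Ndufaf5 in WAT_30C replicate 3 (9.57 CPM). Chance gives such a value in about 1 in 20 groups.

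The cold response differed between the tissues, by the tested difference of WAT minus BAT, for Ndufaf4 (-0.87), Ndufaf8 (-0.50), Ndufaf3 (0.65) and Ndufc2 (0.88) on the log2 scale.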

How the results depend on the processing

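Subunits called higher in cold BAT numbered 17 with library totals, 16 in the fit of all 16 libraries and 0 with groups from the source label. Those called lower numbered 7 with library totals and 0 with RLE size factors, no filter, DESeq2, the replicate block, all 16 libraries, the 4 libraries of matching labels and the source label. Assembly factors called higher numbered 3 with library totals, all 16 libraries and the 4 libraries, and 0 with the source label, and those called lower 0 in the last 3 settings. Library totals gave -0.037 for the assembly factor median, -0.10 for Ndufaf5, -0.17 for Ndufaf6, -0.16 for Ndufaf8, -0.077 for Ndufa4 and -0.35 for Ndufa4l2. The source label gave -0.047 for Ndufaf2, -0.092 for Ndufaf8, 0.023 for Ndufc2, 0.037 for Ndufs7 and 0.016 for Ndufa7.

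In cold WAT, subunits called higher numbered 10 with DESeq2 and 29 with all 16 libraries, assembly factors 4 with all 16 libraries, and Ndufaf5 was -0.041 with library totals. For WAT minus BAT, subunits called numbered 0 with RLE size factors, 12 with library totals and 0 with the replicate block, under which 1 assembly factor was called. The share of all genes called with the replicate block is not given here. The assembly factor median was -0.042 with RLE, -0.016 without mitochondrially encoded genes, -0.044 with DESeq2 and -0.029 with the replicate block. The cause of these changes was not tested. Residual correlations between libraries of equal replicate number ran from -0.531 to 0.275. Between BAT and WAT at the same temperature they ran from -0.303 to 0.275. Libraries of unequal number were not compared, so these values cannot show whether the tissues shared mice.

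With 1 library left out in turn, subunits called in cold BAT ranged from 28 to 30 higher and 0 to 1 lower, and assembly factors from 5 to 7 higher. For WAT minus BAT, 0 to 11 subunits and 1 to 4 assembly factors were called, with medians from -0.021 to 0.59 and from -0.31 to 0.22. The share of all genes called for WAT minus BAT also moved, from 20.8% with every library to 31.3% without WAT_5C replicate 1. Shares of all genes are not given for the other fits with 1 library left out, so these ranges of counts are not set against them. Ndufaf5 in WAT ranged from -0.048 to 0.47, Ndufa4l2 in WAT from -0.43 to 0.10 and Ndufa4l2 in BAT from -0.0071 to 0.10. Tissue differences kept 36 subunits called in each of these fits.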
